A study of Mus musculus with 40 samples.

Results

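The genes described here are 9 cytosolic and mitochondrial heat shock genes of the mouse, chosen by name: Hspa1a, Hspa1b, Hspa8, Hsph1, Dnajb1, Hsp90aa1, Hspb1, Hspd1 and Hspe1. A probe belonged to a gene when the deposited fold change table gave it that gene's symbol. By this rule 14 probes measured 8 of the 9 genes, out of 40628 probes and 29411 symbols on the array. Hspa1b had no probe under its own symbol, but 2 of the 4 Hspa1a probes listed accessions of both genes, so the levels of those probes may hold signal from either. The probe read for Hspa1a lists accessions of that gene alone, though the genes are close in sequence. The genes and the lists below were chosen with earlier results of these data known.

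RNA labelled as subcutaneous SVCs of C57BL/6J mice was hybridized with 1 colour to 40 arrays, of which 38 had consistent labels. The mice were weaned and 3 to 4 weeks old when the diets began. LFC mice ate a diet with 10% of calories from fat, and HFC mice a diet with 60% of calories from fat and more sucrose. HF5, HF20 and HF75 mice ate the HFC diet with 5, 20 or 75 µg of KAL-1, which the labels call an ethano-botanical formulation. LFC and HFC had 11 arrays each, on days 1, 6, 10 and 14 and weeks 0, 3, 6, 9, 12, 15 and 18. HF5 had 6 arrays, on weeks 3 to 18, and HF20 and HF75 had 5 each, on weeks 3 to 15. By the labels there was 1 array per diet and time point. The study's methods count week 0 as the time of day 14, which would give LFC and HFC 2 arrays each for that time, but here they are kept apart. Other time points had no replicate, and the number of arrays limited the precision throughout. The labels do not say how many animals an array holds, so every p-value measures only the spread between arrays. The titles of 4 of the 5 week 9 arrays (LFC, HFC, HF5 and HF20) contain the letters WS, whose meaning is not given.

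Array brightness varied within each diet. The 75th percentile of the intensity ran from 8.02 to 2170 on LFC arrays (median 834), from 168 to 1720 on HFC arrays (median 829), from 485 to 1540 on HF5 arrays, from 796 to 1870 on HF20 arrays and from 469 to 781 on HF75 arrays. A pair of LFC arrays stood apart. The week 3 array was the dimmest, with 17.2% of probes well above background, and the day 14 array had 9104 spots marked as outliers. Their median rank correlations with the other arrays were 0.509 and 0.465, against 0.834 to 0.943 for the rest. Levels below are log2 intensities relative to each array's own 75th percentile, so 0 is that percentile, and differences are log2 differences.

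The design text of the series speaks of infiltrating macrophages, so the label was checked against markers. The mean level of 11 macrophage markers ran from -1.26 on HFC day 1 to 2.85 on HFC week 6, with a median of 1.00 over the 38 arrays, and the brightest, Ctss, averaged 4.10. The F4/80 gene was read from the probe under its older symbol Emr1, since no probe carried the symbol Adgre1. Markers of fibroblasts had a median of 3.90, with averages from 0.27 for Pdgfra to 5.79 for Dcn. Markers of adipocytes had a median of 2.22, with averages from -2.07 for Lep to 6.05 for Fabp4. Markers of endothelial cells had a median of 2.58. Markers of other stromal cell types and of fat cells were thus measured beside those of macrophages, and in such bulk samples fewer cells of a type and less RNA per cell cannot be told apart.

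Heat shock proteins are chaperones that help other proteins to fold and keep unfolded ones from clumping. In the cytosol, the transcription factor HSF1 is held back by chaperones and released when unfolded proteins build up, and it then switches on genes such as Hspa1a, Dnajb1 and Hspb1 within minutes. Hspa8 is already abundant in unstressed cells, while Hspd1 and Hspe1 form the folding chamber of the mitochondrial matrix. Isolating cells from a tissue, warmth and handling are also known to switch on the inducible members.

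Hspa1a, the stress-inducible HSP70, ranged from -0.80 on LFC week 9 to 7.16 on HF5 week 18 (median 5.52, n = 38). The highest level was on HFC week 18 under background correction by normexp, and on LFC day 10 for the mean of all its probes. By diet, its lowest, median and highest levels were 5.81, 6.16 and 6.40 on HF75 arrays (n = 5), 3.66, 5.71 and 7.16 on HF5 arrays (n = 6), 1.87, 5.70 and 6.94 on HFC arrays (n = 11), -0.80, 4.76 and 6.95 on LFC arrays (n = 11) and -0.62, -0.44 and 5.65 on HF20 arrays (n = 5). In this order each diet's range overlapped that of its neighbour, so no step between neighbours exceeded the spread between arrays. The highest HF20 level, 5.65, was below the lowest HF75 level, 5.81. HF20 and HF75 were not compared by a test and the share of all genes with such a gap is not given, so this is a description. Most arrays lay near the top of the range and a few far below it. The 5 lowest levels were -0.80 on LFC week 9, -0.62 on LFC week 12, -0.62 on HF20 week 15, -0.53 on HF20 week 12 and -0.44 on HF20 week 9. Above these came LFC day 14 at 1.32 and HFC day 1 at 1.87, then HF5 week 9 at 3.66 and LFC day 6 at 4.03. The plot of member levels over time shows this split. It also ran within single scan days. On the day when all 5 week 12 arrays were scanned, LFC and HF20 gave -0.62 and -0.53, while HFC, HF5 and HF75 gave 6.33, 6.53 and 6.40. On the week 15 scan day, HF20 gave -0.62 and the other diets 5.70 to 6.37. The 75th percentile on the 5 lowest arrays was 1100 to 1550, above the medians of the LFC and HFC arrays. The median of the HF20 arrays, some of which are among these 5, was 1210. The spot for Hspa1a was saturated on 5 of the 38 arrays and on no diet's full set of arrays. These levels, from 5.03 on HF20 week 6 to 6.37 on HF75 week 15, are not exact, so the order of the high levels is not either.

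Hspa8, the constitutive HSP70 of the cytosol, varied much less. Its median was 5.94 on HF75, 5.83 on HF5, 5.78 on HFC, 5.23 on LFC and 5.09 on HF20 arrays. Its levels ran from 4.85 to 5.66 on HF20 arrays and from 5.28 to 6.08 on HF5 arrays, again with overlapping ranges. On LFC day 14 the level was 2.84, the lowest of the 38. Hsph1, which exchanges the nucleotide of HSP70 partners, had medians of 3.71 on HF75, 3.43 on HFC, 3.37 on HF5, 2.73 on LFC and 1.82 on HF20 arrays, within an LFC range of -0.29 to 4.70. Dnajb1, an HSP40 that hands clients to HSP70, had medians of 4.83 on HFC, 4.81 on HF75, 4.66 on HF5, 4.47 on LFC and 3.59 on HF20 arrays. The lowest Dnajb1 level was 0.85 on LFC day 14 and the highest 6.34 on LFC day 10. Next lowest were 2.99 on LFC week 9, then 3.33 on HF20 week 9 and on HF20 week 12, 3.52 on LFC week 12 and 3.59 on HF20 week 15, the arrays that were also lowest for Hspa1a.

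Hsp90aa1, the inducible HSP90 of the cytosol, had medians of 5.63 on HF75, 5.40 on HFC, 5.39 on HF5, 5.29 on LFC and 5.04 on HF20 arrays, and ran from 4.97 to 5.12 on HF20, from 4.89 to 6.44 on HF75 and from 4.62 to 6.03 on HFC arrays. Its extremes were both on LFC arrays, 1.94 on day 14 and 7.56 on week 3, the arrays of low quality. Hspb1, a small heat shock protein that holds unfolded proteins, had medians of 4.21 on HF5, 3.75 on HFC, 3.26 on HF75, 3.20 on LFC and 2.48 on HF20 arrays. Its lowest level was -3.51 on LFC week 18, where the mean of 8 fibroblast markers was also lowest, at -5.70. On LFC week 3 it was not well above background. For Hsp90aa1 and Hspb1 alike, the ranges of neighbouring diets overlapped. Farther apart in order, the Hsp90aa1 levels of HF5, 5.20 to 6.02, lay above those of HF20. HF5 and HF20 were not compared by a test and the share of all genes with such a gap is not given, so this too is a description. Hspb1 had an r of 0.90 (rho 0.80, n = 38) with the mean of the endothelial markers and of 0.76 (rho 0.52) with that of the fibroblast markers, or 0.91 and 0.79 without LFC day 14 and LFC week 3. Their part in the result was not tested.

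Hspd1, the large ring subunit of the mitochondrial folding chamber, followed another pattern than Hspa1a. Its medians were 4.85 on HF20, 4.11 on LFC, 3.99 on HF75, 3.94 on HF5 and 3.75 on HFC arrays, with overlapping ranges. The 4 WS arrays gave 4.85 to 5.11. LFC week 12 gave 5.35, HF20 week 12 gave 5.14 and HF20 week 15 gave 5.35, and the highest levels were 5.90 on HFC day 1, 5.95 on LFC day 6 and 6.01 on HFC day 6. On HF20 weeks 3 and 6, Hspd1 was 3.56 and 3.45. Hspe1, the lid of the same chamber, had medians of 3.13 on HFC, 3.09 on HF20, 3.01 on LFC, 2.92 on HF75 and 2.54 on HF5 arrays. Its extremes were -0.34 on LFC day 14 and 5.77 on LFC week 3, the arrays of low quality, and outside these it ran up to 4.81 on HFC day 1.

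**Figure D1:**
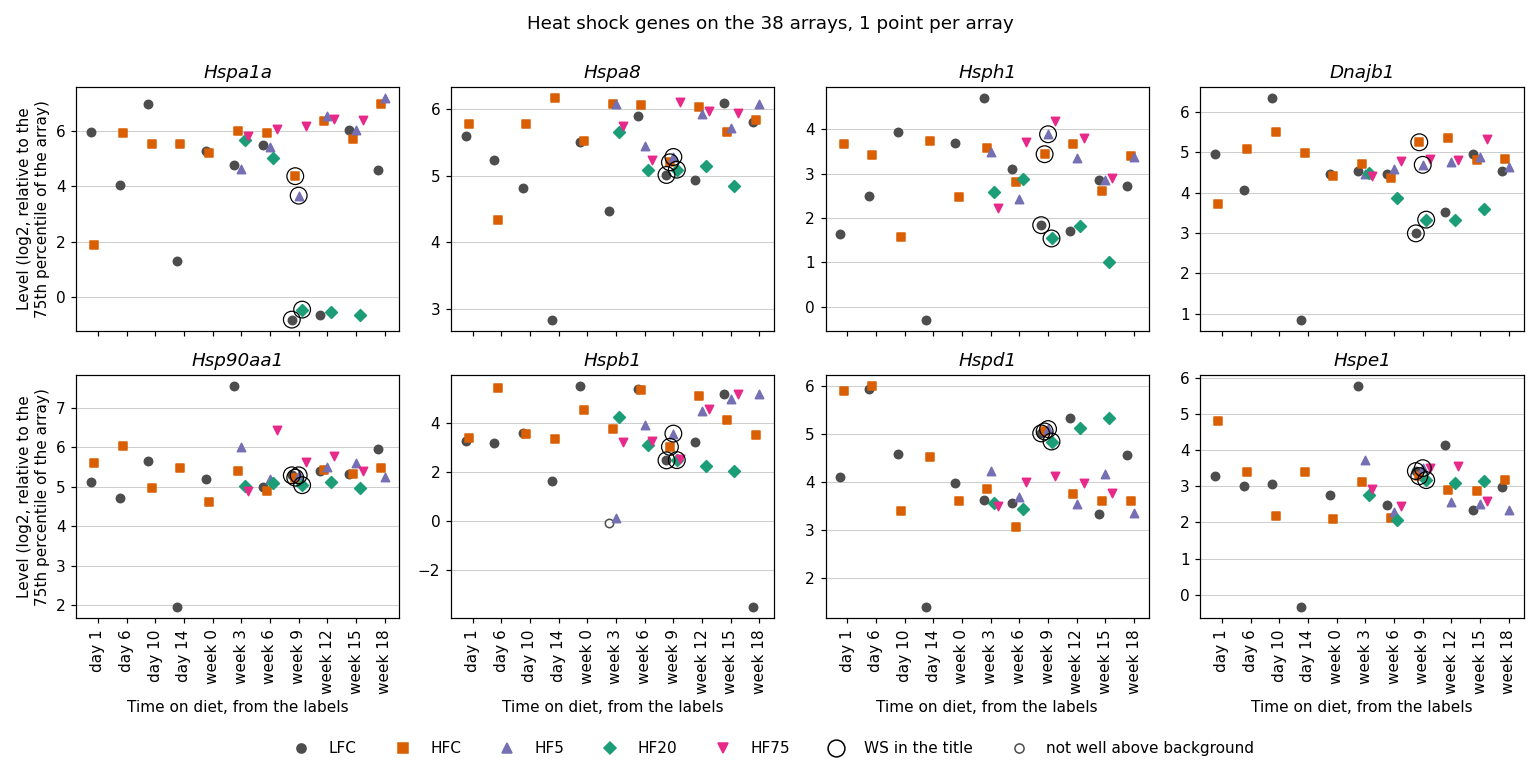
Level of each of the 8 measured heat shock genes (log2 intensity relative to the array's 75th percentile, vertical axis) against time (horizontal axis) on the 38 arrays, coloured by diet; WS arrays are circled and open points are not well above background. Hspa1a is between -0.80 and -0.44 on 5 arrays of LFC and HF20, while Hsp90aa1 stays between 4.97 and 5.12 on the HF20 arrays.

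The comparison of HFC with LFC asks what the high-fat diet changes at matched time points. All 8 measured genes had the higher mean on HFC arrays, with a median difference of 0.56 against -0.05 over the 20826 genes tested, although under quantile normalization the difference of Hspd1 was -0.06. Over 27 alternatives the sign turned in 9 for Hspd1, 9 for Hspe1, 6 for Hsp90aa1 and 1 for Hsph1. Hspa1a averaged 5.39 on HFC and 3.90 on LFC arrays, a difference of 1.49 (SE 0.82, n = 11 pairs), and was higher on HFC in 7 of 11 pairs. Its pairs ran from -4.07 on day 1 to 6.95 on week 12, and were 5.16 on week 9. Hspb1 differed by 1.38 (SE 0.64, higher in 7 of 11 pairs), Dnajb1 by 0.67 (SE 0.45, 6 of 11), Hspa8 by 0.57 (SE 0.36, 9 of 11) and Hsph1 by 0.55 (SE 0.51, 6 of 11). The smallest differences were 0.12 for Hsp90aa1, 0.08 for Hspd1 and 0.04 for Hspe1. By limma, 0 of the 8 genes passed the threshold, and so did 0 of the 29215 probes (0%), with adjusted p of 0.942 to 0.989 for the 8 genes. At an unadjusted p under 0.05 there were 806 probes, among them 1 of these genes, Hspb1. The test named in the study's methods gave 424 probes at that level, 0 after adjustment and 0 of the 8 genes. There it compares 3 log fold changes with 3 at each time point in liver. Here it compares the levels on the 11 arrays of each diet over all time points in subcutaneous SVCs, so the tissue, the scale and the inputs differ. With array quality weights the difference of Hspb1 was 0.02, over alternatives that ran up to 1.63. Without the arrays of day 14, week 3 and week 9 together, left out after seeing the data, that of Hspa1a was 0.72. Single pairs carried much of some differences. The day 14 pair, with its LFC array of low quality, gave 4.14 for Dnajb1, 4.03 for Hsph1 and 3.31 for Hspa8, and without it the differences were 0.33, 0.20 and 0.29. Those of Hsp90aa1, Hspd1 and Hspe1 were then -0.22, -0.22 and -0.33. Without week 12, that of Hspa1a was 0.94, and without week 18 that of Hspb1 was 0.82. On the 4 pairs hybridized on 1 slide each, Hspa1a differed by 2.06. On the 10 pairs scanned on 1 day it differed by 2.04, and these are all pairs but that of day 1, which was -4.07. With no replicate block, in place of the time points as blocks, the difference was 1.49, again not called.

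HF5 against HFC asks whether 5 µg of KAL-1 on top of the diet changes these genes. The differences were small, from -0.43 for Hspb1 (SE 0.64) to 0.20 for Hspd1, with 6 of 8 genes lower, a median of -0.07 and 0.00 over the 20840 genes tested. Hspa1a was lower by a mean of -0.31 (SE 0.26), and higher on HF5 in 3 of 6 pairs. Dnajb1 differed by -0.22 (SE 0.18), Hspe1 by -0.09, Hspa8 by -0.06 and Hsph1 by -0.02, while Hsp90aa1 was higher by 0.19, in 5 of 6 pairs. Under background correction by normexp, the differences of Hspa8, Hsph1, Dnajb1 and Hspe1 were above 0. On the 3 pairs that shared a slide, that of Hspa1a was 0.24 and that of Hspb1 0.64. Without week 3 they were -0.09 and 0.21. Over 18 alternatives the sign turned in 4 each for Hspb1, Hspa8 and Hsph1, in 2 for Hspe1 and in 1 each for Hspa1a and Dnajb1. It turned in 0 for Hsp90aa1 and Hspd1. The limma test called 0 of 8 genes and 0 of 29200 probes (0%). Unadjusted p under 0.05 were found for 1517 probes and 0 of these genes. The comparisons of HF5, HF20 and HF75 use the same HFC arrays, so their values are not independent of each other.

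HF20 against HFC asks the same of 20 µg of KAL-1, and it held the largest differences. Hspa1a averaged 1.82 on HF20 and 5.66 on HFC arrays of weeks 3 to 15, a difference of -3.85 (SE 1.09, n = 5 pairs), and was lower on HF20 in all 5 pairs. The pairs were -0.35 on week 3, -0.89 on week 6, -4.80 on week 9, -6.86 on week 12 and -6.33 on week 15. The spot was saturated on HF20 week 6, so -0.89 is not exact and the sign of that pair is not certain. On the HF20 arrays themselves, Hspa1a was 5.65 on week 3 and 5.03 on week 6, then -0.44, -0.53 and -0.62 on weeks 9, 12 and 15. Hsph1 was lower by a mean of -1.25 (SE 0.34, 4 of 5 pairs), Dnajb1 by -1.17 (SE 0.34, 5 of 5), Hspb1 by -1.45 (SE 0.52, 4 of 5) and Hspa8 by -0.64 (SE 0.23, 5 of 5). Hsp90aa1 differed by -0.21 and Hspe1 by -0.01, and both were above 0 under background correction by normexp. Hspd1 was the 1 gene with a higher mean, by 0.61 (SE 0.38, 3 of 5 pairs). Its pairs of weeks 12 and 15 were 1.39 and 1.75, and without week 15 the difference was 0.32. The median of the 8 differences was -0.91, against 0.08 over the 22082 genes tested.

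None of these HF20 differences was called. By limma, 0 of 8 genes and 0 of 30831 probes (0%) passed, with a lowest adjusted p of 0.401 among these genes. At an unadjusted p under 0.05 there were 3673 probes and 5 of the genes: Hspa1a, Hspa8, Hsph1, Dnajb1 and Hspb1. For Hspa1a the difference ran from -4.72 to -3.09 over 16 alternatives, with adjusted p between 0.134 and 0.790. It was -4.72 on the 4 pairs scanned on the same day, which are all pairs but that of week 3, the smallest in size. With no replicate block it was -3.85. No HF20 array shared a slide with its HFC partner, so the slide and the diet cannot be told apart here.

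Other genes differed with the heat shock genes on the HF20 arrays. All 12 immediate-early genes, which handling and growth signals also switch on, had lower means on HF20, with a median of -2.39, and 11 had an unadjusted p under 0.05. Fos, a subunit of AP-1, differed by -3.45 (SE 1.37). Of 10 adipocyte markers 9 had higher means, with a median of 1.74 and 3.20 for Lep. Their mean level was 2.02 on HF20 week 3 and 0.75 on week 6, then 5.04, 5.48 and 5.13 on weeks 9, 12 and 15. All 11 macrophage markers had lower means, with a median of -0.64 and -1.50 for Cd14. None of these genes was called, and their part in the result was not tested.

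HF75 against HFC, at 75 µg of KAL-1, showed no such gap. Hspa1a was higher by a mean of 0.50 (SE 0.34), in 4 of 5 pairs, and lay at 5.81, 6.07, 6.16, 6.40 and 6.37 on weeks 3, 6, 9, 12 and 15. The difference rested on the week 9 pair, 1.80, whose HFC array is a WS array and whose HF75 array is not. It was 0.17 without that pair and 0.17 with array quality weights. Hsp90aa1 was higher by 0.37, Hspe1 by 0.15, Hsph1 by 0.14 and Hspd1 by 0.01, whereas Hspb1 was lower by a mean of -0.52, Dnajb1 of -0.07 and Hspa8 of -0.01. The week 6 pair of Hsp90aa1 was 1.55, and without it the difference was 0.08. With array quality weights Hsp90aa1 had -0.01, Hsph1 -0.45 and Hspe1 -0.02, while Hsph1 had 0.52 without week 3. Hspb1 had 0.25 on the pairs scanned on the same day and -0.91 without week 15. Under background correction by normexp Dnajb1 and Hspa8 were above 0, and under quantile normalization Hspd1 was below 0. The median of the 8 was 0.08, against 0.02 over the 20657 genes tested. By limma, 0 of 8 genes passed the threshold, against 295 of 28910 probes (1.02%), 236 of them higher and 59 lower on HF75. At an unadjusted p under 0.05 there were 4220 probes and 0 of these genes. The count of probes depended on single time points: it was 0 without week 3, 7 without week 6, 200 without week 9, 95 without week 12 and 35 without week 15. It was also 0 with no replicate block and 0 on the 2 pairs scanned on the same day. With array quality weights it was 1314, and 153 with no filter on dim probes.

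**Figure D2:**
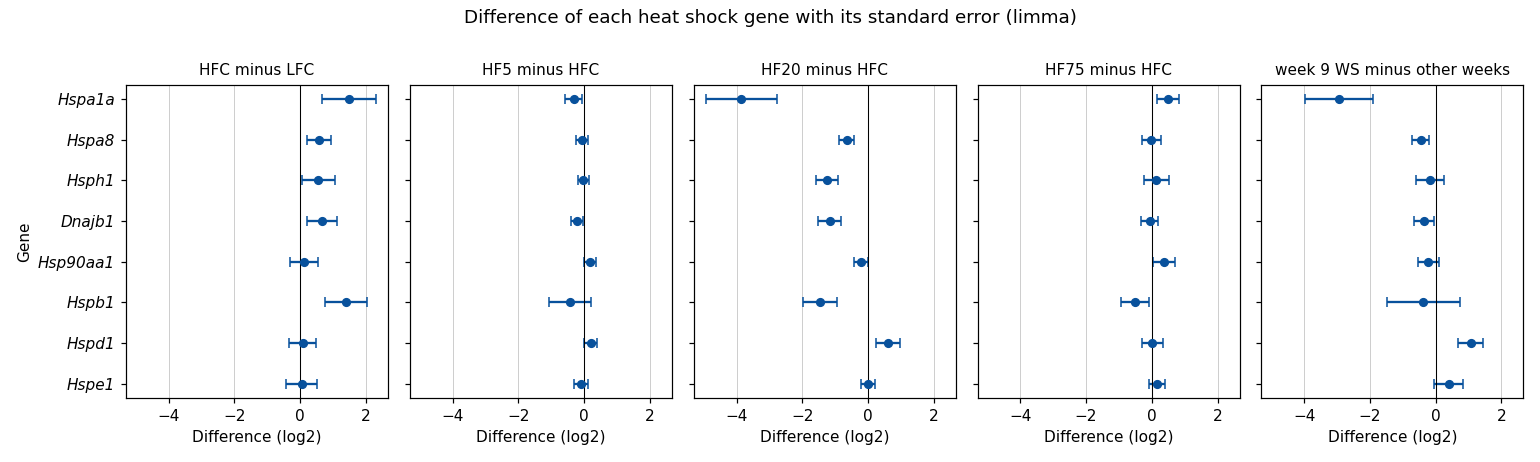
Fitted difference in level (log2, horizontal axis) of each of the 8 genes (vertical axis) in 5 comparisons, with bars of 1 SE and a line at 0. The largest are those of Hspa1a, -3.85 for HF20 against HFC and -2.95 for the WS arrays against the other weeks, and 0 of the 8 genes passed the threshold in any of them.

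The WS arrays were set against the other weeks from 3 to 18 in the diets LFC, HFC, HF5 and HF20, with 4 against 19 arrays. Hspa1a averaged 1.69 on WS arrays and 4.76 elsewhere, a difference of -2.95 (SE 1.04), and lay below the other weeks' median on 4 of 4 arrays. The WS arrays were uneven in it. LFC and HF20 gave -0.80 and -0.44, HFC gave 4.36 and HF5 gave 3.66. The HF75 array of week 9, which carries no WS, gave 6.16. On weeks 6 and 15 the same 4 diets gave 5.47 and 6.03 for LFC, 5.92 and 5.70 for HFC, 5.41 and 6.01 for HF5, and 5.03 and -0.62 for HF20. On week 12 they gave -0.62 for LFC and -0.53 for HF20, near the WS levels of those diets, and 6.33 for HFC and 6.53 for HF5. Hspd1 was higher on WS arrays, 5.01 against 3.94, by 1.06 (SE 0.37), and above the other weeks' median on 4 of 4 arrays. On weeks 6 and 15 it ran from 3.06 to 4.17, apart from 5.35 on HF20 week 15. On week 12 it was 5.35 on LFC and 5.14 on HF20, above every WS array, and 3.75 on HFC and 3.55 on HF5. Hspe1 was higher by 0.39 (SE 0.44) and above the median on 4 of 4 arrays, while Hspa8 was lower by a mean of -0.46 (SE 0.27), on 4 of 4. The remaining differences were -0.38 for Hspb1 (SE 1.11), -0.36 for Dnajb1, -0.22 for Hsp90aa1, which was 0.07 under quantile normalization, and -0.17 for Hsph1, which was 0.10 under background correction by normexp. Hspb1 and Hsp90aa1 were also below the other weeks' median on 4 of 4 arrays, and Dnajb1 and Hsph1 on 2 of 4. Without the LFC array Dnajb1 had 0.00 and Hsph1 0.16. Hspb1 had -0.05 without the HFC array, and -1.22 with only weeks 6 and 12 as the other weeks.

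In the WS comparison limma called 0 of 8 genes and 0 of 30510 probes (0%). At an unadjusted p under 0.05 there were 5306 probes and 2 of these genes, Hspa1a and Hspd1, whose adjusted p were 0.171 and 0.167. The median of the 8 differences was -0.29, against -0.07 over the 21807 genes tested. With array quality weights the call changed: 5 of the 8 genes passed, Hspa1a at -2.59, Hspa8 at -0.62, Hspb1 at -1.15, Hspd1 at 1.30 and Hspe1 at 0.63, and so did 16042 of the 30510 probes. These weights were 4.98 for HFC, 4.52 for HF5, 2.08 for LFC and 0.479 for HF20 among the WS arrays. Over all alternatives the adjusted p of Hspa1a ran from 0.00143 to 0.623 and that of Hspd1 from 4.63e-05 to 0.623. The 4 WS arrays lay on 2 slides and were scanned on 1 day that held no other array, so the WS title and the scan day cannot be told apart. With slide as a random block the difference of Hspa1a was -2.92, and with no replicate block for diet it was -3.06.

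The WS arrays also differed in other lists. All 12 immediate-early genes had lower means, with a median of -2.92, each at an unadjusted p under 0.05. Fos differed by -4.61 (SE 1.38). The mean of this list was -0.09 on LFC, 0.17 on HF5, 0.36 on HF20 and 2.70 on HFC among the WS arrays, and had a median of 4.79 on the other weeks. Adipocyte markers were higher for 9 of 10 genes, with a median of 3.21 and 5.61 for Retn (SE 1.48). Their mean level was 4.79 to 5.06 on WS arrays, against a median of 1.45 on the other weeks. Markers of neutrophils (0 of 6 higher, median -3.26), epithelium (0 of 6, -3.40), B cells (0 of 5, -3.01) and T cells (0 of 7, -1.79) had lower means, and macrophage markers were higher for 8 of 11 genes, with a median of 0.31. None was called, and their part in the result was not tested.

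Time was compared within LFC and HFC, weeks 3 to 18 against days 1 to 14 and week 0, with 12 and 10 arrays. Hspb1 had the most negative difference, -0.62, and Hsp90aa1 the largest positive one, 0.59, above the early median on 10 of 12 late arrays. The others were 0.45 for Hspe1, 0.43 for Hspa8, which was -0.01 under quantile normalization, 0.40 for Hsph1, 0.08 for Dnajb1, -0.19 for Hspa1a and -0.31 for Hspd1. These rested on few arrays. Hsp90aa1 differed by 0.28 without day 14 and by 0.00 without day 14, week 3 and week 18, and Hspb1 by 0.01 without week 18 and by 0.18 without those 3. Over 25 alternatives Hspa1a ran from -1.03, without those 3, to 0.36, without week 9, and Hspd1 from -0.84, without day 14, week 3 and week 9, to 0.10, without day 6. Hspe1 ran from -0.20 to 0.77, Hsph1 from -0.11 to 0.52 and Dnajb1 from -0.36 to 0.45. None passed by limma (0 of 8 genes), against 1 of 30259 probes (0.00330%). That probe, of the immunoglobulin heavy chain locus Igh, was higher by 3.69 (SE 0.58, adjusted p 0.0485) and is named after its value was seen. Unadjusted p under 0.05 were found for 1257 probes and 0 of these genes. The median of the 8 was 0.24, against 0.00 over 21606 genes. The count of 1 probe was 4 without week 3, 2 without week 12 and 24 without day 14, week 3 and week 18 together, a set chosen after seeing the data. It was 140 with array quality weights and 0 when day 6, 10 or 14, or week 6, 9, 15 or 18, was left out on its own. It was 0 as well with slide or scan day as a random block, whose correlations were 0.35 and 0.25, under quantile normalization, under background correction by normexp and with no filter on dim probes.

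The difference between the HFC effects of both periods was tested as well. For Hspa1a the mean HFC minus LFC difference was 0.10 (SD 3.15, n = 5 pairs) in the early period and 2.64 (SD 2.85, n = 6 pairs) in the late one, which gave 2.54 (SE 1.57) for the change. Hspb1 had 1.41 and Dnajb1 0.11, while Hspe1 had -1.43, Hsp90aa1 -1.27, Hspd1 -1.11, Hspa8 -0.26, which was 0.45 under quantile normalization, and Hsph1 -0.25. With array quality weights Hsph1 had 1.59, Hspe1 0.20, Hsp90aa1 0.14 and Hspd1 0.10. Over 24 alternatives the sign turned in 7 for Hsph1 and in 6 for Dnajb1, which ran from -0.35 to 1.23. For Hspa1a the change ran from 1.49 without day 1 to 3.98 without day 14, week 3 and week 18, and for Hspb1 it was 0.00 without those 3. By limma, 0 of 8 genes and 0 of 29215 probes (0%) passed. At an unadjusted p under 0.05 there were 1233 probes and 0 of these genes. The median over the 8 was -0.26, against -0.49 over 20826 genes. Under background correction by normexp 5049 probes were called, 4969 of them higher, and 0 of these genes.

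Other chaperones were read from lists of the pathway. In the HF20 comparison, of the cytosolic HSP70 relatives 4 of 7 had higher means, with a median of 0.09, and of HSP90 and its co-chaperones 2 of 9, with a median of -0.13. The other cytosolic HSP40 proteins gave 4 of 8 and -0.07, the HSP70 nucleotide exchange and adaptor factors 5 of 6 and 0.27, the other small heat shock proteins 3 of 6 and 0.09, and the TRiC chaperonin 3 of 8 and -0.02. Hsf1, the main heat shock transcription factor, differed by -0.32. Hsf4 was well above background on 12 of 38 arrays only, so no difference is given for it. All 9 mitochondrial chaperones and proteases had higher means, with a median of 0.69 and 0.93 for Trap1 (SE 0.55), the HSP90 of mitochondria. In that list 0 genes were called.

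The same lists were read in the WS comparison. All 9 mitochondrial chaperones and proteases had higher means, with a median of 1.05, 5 of them at an unadjusted p under 0.05, and 1.69 for Trap1 (SE 0.49, adjusted p 0.132). The mean of this list was 2.15 to 2.33 on WS arrays, against a median of 0.99 on the other weeks. TRiC subunits were higher for 7 of 8 genes (median 0.21), small heat shock proteins for 5 of 6 (0.87), and nucleotide exchange and adaptor factors for 4 of 6 (0.32), with 1.12 for St13. HSP90 and its co-chaperones gave 6 of 9 and 0.12, cytosolic HSP40 proteins 5 of 8 and 0.05, and cytosolic HSP70 relatives 4 of 7 and 0.22. Hsf1 differed by -0.10. By limma, 0 genes of these lists were called in any comparison. The mitochondrial list had 6 of 9 higher means for HFC against LFC (median 0.01), 8 of 9 for HF5 (0.06) and 4 of 9 for HF75 (-0.12), where Trap1 had the lower mean on HF75, by -1.17 (SE 0.33), at an unadjusted p under 0.05.

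For HFC against LFC, the pathway lists had medians of 0.09 for the cytosolic HSP70 relatives, 0.18 for HSP90 and its co-chaperones, 0.21 for HSP40 proteins, 0.24 for nucleotide exchange and adaptor factors, 0.16 for small heat shock proteins and 0.26 for TRiC. Over all 20826 genes tested the median was -0.05. Hspa12b, an HSP70 relative of endothelial cells, had the largest difference among them, 1.12 (SE 0.51). For HF5 against HFC, 0 of 6 other small heat shock proteins had a higher mean, with a median of -0.54, and for HF75 against HFC, 0 of 6 nucleotide exchange and adaptor factors did, with a median of -0.32 and -0.65 for Bag3. All 12 immediate-early genes had higher means on HFC than LFC (median 1.29), 1 of 12 on HF5 (-0.42) and 8 of 12 on HF75 (0.14) against HFC.

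Chaperones of the endoplasmic reticulum, which belong to the unfolded protein response, served as a comparison outside the cytosol. Of 9 tested, 3 had higher means for HF20 against HFC, with a median of -0.28, and 1 on the WS arrays, with a median of -0.28. Hspa5, the HSP70 of this compartment, differed by -0.86 (SE 0.26) and -0.84 (SE 0.36). The medians were 0.08 for HFC against LFC, 0.06 for HF5 and -0.06 for HF75. None of its genes was called.

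The cell type lists were read beside the heat shock genes. For HFC against LFC, fibroblast (8 of 8 higher, median 1.27) and endothelial markers (7 of 7, 1.25) had higher means, as did adipocyte (7 of 10, 0.47), macrophage (8 of 11, 0.21), muscle (5 of 8, 0.33) and erythroid markers (3 of 4, 0.50). T cell (3 of 7, -0.05), B cell (0 of 5, -0.46), neutrophil (0 of 6, -0.98) and epithelial markers (0 of 6, -0.84) did not. On LFC week 3, dim values were raised to -0.06, that array's lowest level well above background, against -3.66 on LFC day 14 and lower elsewhere. This was the highest level of Cd3e, Cd4 and Cd79a, so the lower HFC means of dim markers partly hold this raised value. For HF20, fibroblast (1 of 8, -0.39), endothelial (0 of 7, -0.69), T cell (2 of 7, -1.81), B cell (0 of 5, -1.20), erythroid (0 of 4, -0.60) and neutrophil markers (0 of 6, -0.90) were mostly lower, with muscle at 0.05 and epithelium at 0.11. For HF75, macrophage markers were higher for 2 of 11 genes (median -0.96) and epithelial markers for 6 of 6 (1.54). Fibroblast markers were higher for 2 of 8 (-0.87), Dcn by 0.85 and Col1a2 by 0.20. The others were adipocyte (4 of 10, -0.10), endothelial (2 of 7, -0.26), T cell (4 of 7, 0.07), B cell (5 of 5, 0.29), muscle (7 of 8, 0.71), erythroid (0 of 4, -1.37) and neutrophil markers (6 of 6, 0.94). The fibroblast gene Dpt fell, by a difference of -2.43 (SE 0.38, adjusted p 0.0398 by limma), and was the only list gene called in any comparison. It was not called when any of the 5 time points was left out, with no replicate block, with no filter on dim probes or on the pairs scanned on the same day. For HF5, macrophage markers were higher for 2 of 11 genes (-0.43), fibroblast markers for 0 of 8 (-0.59) and epithelial markers for 6 of 6 (1.36). The others were adipocyte (1 of 10, -0.25), endothelial (0 of 7, -0.37), T cell (1 of 7, -0.50), B cell (0 of 5, -0.42), muscle (5 of 8, 0.12), erythroid (0 of 4, -0.93) and neutrophil markers (3 of 6, 0.07). The part of these cell types in the heat shock levels was not tested.

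In each list and comparison the gene with the largest difference was also read, first for the lists of chaperones, HSF factors and immediate-early genes and then for those of cell types. Each value is the first group minus the second. None is called among those given here, which leave out the genes already given above. For HFC against LFC these were Hsf1 0.24, Hsp90ab1 0.57, Dnaja2 1.11, Bag2 -0.67, Hspb3 -1.02, Cct7 0.48, Yme1l1 -0.41, Hspa5 0.61 and Fos 1.91. Of cell types, for HFC against LFC, they were Mrc1 0.65, Dpt 1.69, Cidec 1.38, Cldn5 1.57, Cd4 -1.02, Cd79a -0.65, Tnnc2 0.85, Hba-a1 0.85, Mpo -1.65 and Krt5 -2.13. On HF5 these were Hsf1 0.20, Hspa12a -0.71, Ptges3 0.28, Dnajb5 0.43, Bag2 0.23, Hspb2 -0.70, Cct8 0.25, Hspa9 0.42, Canx 0.31 and Fos -1.18. Of cell types, on HF5, they were Cd14 0.61, Dpt -0.87, Retn -0.91, Vwf -1.02, Cd3g -0.69, Cd79b -0.67, Tnnc2 0.85, Alas2 -1.02, Ltf 0.98 and Krt5 2.82. On HF20 these were Hspa12a 0.24, Unc45a -0.52, Dnajb4 -0.58, Bag1 0.66, Hspb6 0.76 and Cct6a 0.34. Of cell types, on HF20, they were Mfap5 -1.40, Vwf -1.53, Cd3d -1.94, Ms4a1 -1.49, Myh4 1.13, Slc4a1 -1.02, S100a8 -1.81 and Epcam 0.86. On HF75 these were Hsf1 -0.02, Hspa12a -0.46, Fkbp4 -0.76, Dnaja4 -0.55, Hspb8 -1.33, Cct3 -0.82, Pdia6 -1.22 and Junb 0.91. Of cell types, on HF75, they were Csf1r -1.71, Lep -1.32, Tek -0.39, Cd4 0.52, Cd79b 0.39, Tnnc2 2.0, Alas2 -1.55, Ngp 1.58 and Epcam 2.50. For HFC against LFC, the values of Hspb3, Cd4 and Cd79a include the level of -0.06 to which dim genes were raised on LFC week 3. That array also enters the WS and period comparisons.

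The same was read in the remaining comparisons, again with none called. On the WS arrays these were Hspa12b 0.92, Unc45a -0.80, Dnajc7 -0.92, Hspb8 1.67 and Tcp1 0.56. Of cell types, on the WS arrays, they were Cd14 -2.13, Dpt 1.36, Vwf -1.12, Trat1 -2.76, Ms4a1 -4.26, Myh4 -2.07, Slc4a1 -0.96, Ltf -5.00 and Krt8 -6.49. For weeks 3 to 18 against the early period these were Hsf1 -0.03, Hspa12b -1.14, Hsp90ab1 -0.37, Dnajb6 0.87, Bag2 0.29, Hspb3 -0.98, Cct5 0.44, Hspa9 -0.53, Hspa5 0.57 and Socs3 -0.46. Of cell types, for weeks 3 to 18 against the early period, they were Itgam 1.32, Col3a1 -1.29, Plin1 -2.64, Cldn5 -1.49, Cd3e -1.02, Cd79a -1.16, Tnnc2 -1.67, Alas2 -1.71, Ngp -0.88 and Krt14 -1.54. For the change in HFC effect these were Hsf1 0.44, Hspa12a 1.53, Fkbp4 -0.66, Dnaja2 -2.93, Bag2 -1.04, Hspb6 -1.42, Cct5 -1.17, Dnaja3 -2.15, Sdf2l1 1.06 and Atf3 3.48. Of cell types, for the change in HFC effect, they were Lyz2 1.78, Dpt 3.25, Lep -1.83, Cldn5 1.84, Cd3d 4.35, Cd22 5.75, Mylpf -1.40, Hba-a1 0.88, S100a9 1.60 and Krt8 1.93.

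Across the 38 arrays, the levels of the cytosolic genes ran together to differing degrees. Hspa1a and Dnajb1 had a Pearson r of 0.74 (rho 0.72), and r of 0.82 without LFC day 14 and LFC week 3, the arrays farthest out in quality. Hspa1a had an r of 0.59 with Hsph1 (rho 0.45), 0.50 with Hspa8 (rho 0.55), 0.38 with Hspb1 (rho 0.60) and 0.27 with Hsp90aa1 (rho 0.36), or 0.60, 0.52, 0.38 and 0.21 without those arrays. With Hspd1 it was negative, at -0.42 (rho -0.45), or -0.63 without them, and with Hspe1 -0.14 (rho -0.24), or -0.45 without them. Hspd1 and Hspe1 had 0.63 (rho 0.70) and then 0.71, whereas Hsp90aa1 and Hspe1 had 0.78 (rho 0.52) and then 0.34, so that relation rested on those arrays. The points share the array's brightness, its shift and its scan day, and several come from 1 slide or 1 diet, so these coefficients are descriptions.

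Hspa1a also ran with the immediate-early genes. Its r with their mean level was 0.87 (rho 0.80, n = 38), and 0.88 without LFC day 14 and LFC week 3. It was -0.54 (rho -0.36) and then -0.57 with the mean of the adipocyte markers. The 5 arrays lowest in Hspa1a had immediate-early means of -0.09, -0.32, 2.06, -0.80 and 0.36 and adipocyte means of 5.06, 4.89, 5.13, 5.48 and 5.04, in the order given above. A high adipocyte mean did not always go with low Hspa1a. HFC day 6 had 5.72 with Hspa1a at 5.90, and HFC week 9 had 4.79 with Hspa1a at 4.36. HF5 week 9 had an immediate-early mean of 0.17 with Hspa1a at 3.66, and HFC day 1 had 0.07 with Hspa1a at 1.87. Hspd1 had an r of 0.92 with the mean of the mitochondrial list (rho 0.82, then 0.91), of 0.64 with the adipocyte mean (rho 0.66, then 0.71) and of -0.58 with the immediate-early mean (rho -0.64, then -0.78).

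The genes most like Hspa1a in level, among 20147 ranked by Pearson r, were Klf2 (r 0.88, rho 0.80), Socs3 (0.88, 0.85), Ier5 (0.88, 0.75), Nr4a1 (0.87, 0.80) and Gm12260 (0.87, 0.73), over 38 arrays. Without the 2 arrays farthest from the median of Hspa1a, LFC week 9 and LFC week 12, r was 0.86, 0.85, 0.85, 0.86 and 0.84. Klf2 and Nr4a1 are transcription factors of the early response and Socs3 is a feedback inhibitor of cytokine signals. For Hspd1 they were 1110008F13Rik (r 0.95, rho 0.83), Atp5f1 (0.94, 0.75), Gm5825 (0.94, 0.85), Mrpl45 (0.93, 0.84) and Ndufa9 (0.93, 0.79, over 37 arrays). Without HFC day 6 and LFC day 14, r was 0.92, 0.90, 0.92, 0.89 and 0.91. Atp5f1 and Ndufa9 encode parts of the oxidative phosphorylation complexes and Mrpl45 a protein of the mitochondrial ribosome.

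**Figure D3:**
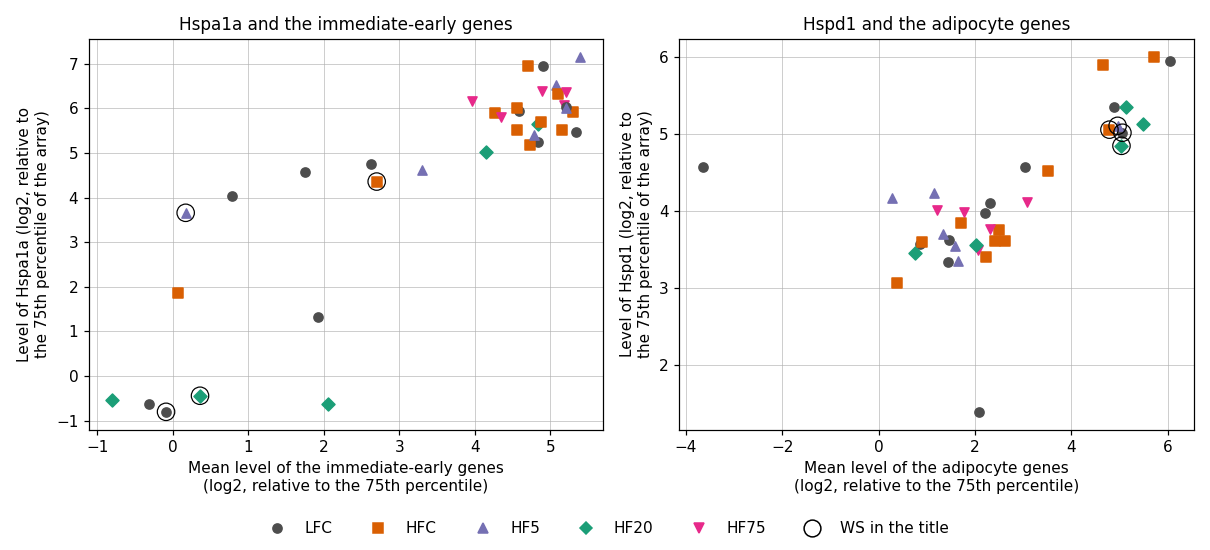
Level of Hspa1a against the mean level of 12 immediate-early genes, and level of Hspd1 against the mean level of 10 adipocyte markers, on the 38 arrays (all axes log2 intensity relative to the array's 75th percentile), coloured by diet with the WS arrays circled. The Pearson r is 0.87 for Hspa1a and 0.64 for Hspd1.

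The other probes of the members were read as well. For Hspa1a, the 3 other probes correlated with the main one at r of 0.99, 0.97 and 0.93 over 37 arrays, and they differed by -3.92 (SE 1.14), -3.88 (SE 1.24) and -3.06 (SE 1.45) for HF20 against HFC, where the last was higher on HF20 in 2 of 5 pairs and had no unadjusted p under 0.05, and by -2.81, -2.83 and -3.27 on the WS arrays. For HFC against LFC they differed by 2.20 (SE 0.79), 2.16 (SE 0.92) and 1.18 (SE 0.94), the first 2 at an unadjusted p under 0.05. Each had 10 of the 11 pairs, and the first lacked day 1, without which the main one gave 2.04, so these are not set against its 1.49. For HF75 against HFC they differed by 0.37, 0.08 and 0.42, each higher on HF75 in 2 of 5 pairs, where the main one was higher in 4. For HF5 against HFC they differed by -0.43, -0.69 and -0.55, and the second was lower in 6 of 6 pairs. The last 2 of these, and Dnajb1's other probe at -0.51, had an unadjusted p under 0.05, and none was called. Hspd1's other probe differed by -0.11 for HF5, where the main one gave 0.20, and by -0.63 for HF75, where the main one gave 0.01. For weeks 3 to 18 against the early period, another Hspa1a probe gave 0.33, Hspa8's other probe -0.30 and Dnajb1's -0.11, each of the other sign than the main one, as did Hspa8's with 0.61 for the change in HFC effect. Dnajb1's other probe differed by -1.18 on the WS arrays, where the main one gave -0.36, and was below the other weeks' median on 4 of 4. Hspa8's other probe was lower by a mean of -0.98 on HF75, where the main one gave -0.01, and neither was called. The probes that list accessions of both Hspa1a and Hspa1b, which carry what these arrays hold on Hspa1b, are shown because they read both genes. The first had levels from -6.46 on LFC week 9 to 2.40 on LFC day 10 and the second from -3.30 on LFC week 9 to 5.08 on HFC week 12. They are printed 5′ to 3′ in lower case, 60 bases each.
First shared probe: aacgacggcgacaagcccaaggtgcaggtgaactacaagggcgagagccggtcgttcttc
Second shared probe: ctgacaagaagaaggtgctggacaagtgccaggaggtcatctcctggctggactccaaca

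Promoter windows were searched for heat shock elements, which are inverted repeats of the unit GAA. A head-to-head pair reads GAANNTTC and a tail-to-tail pair TTCNNGAA, and both read the same on the other strand. Of 32851 RefSeq promoter windows in the mouse build GRCm38.p6, 6.69% held the first, 7.17% the second, 12.8% either and 0.466% at least 3 alternating units. Of the 9 genes, 7 had a window, and Hspa8 and Hsp90aa1 had none. Either pair occurred in 6 of these 7 genes, and in 7 of their 10 windows, while both Dnajb1 windows held none. These counts repeat some sequence, since the 2 Hsph1 windows overlap and hold the same pair, and Hspd1 and Hspe1 share a stretch. Such a match is a description of sequence, and no binding was measured. Hspa1a and Hspa1b, which lie near each other on chromosome 17, are shown to compare the 2 genes that shared probes. Their windows of 250 bases, chr17:34972157-34972406 and chr17:34959239-34959488, both on the minus strand, were 98.8% identical. They differed at 3 positions, C44T, T47C and T249G, with the base of Hspa1a first and positions counted from 1 at the 5′ end. Capitals mark the head-to-head pair, at position 147 in both.
Hspa1a: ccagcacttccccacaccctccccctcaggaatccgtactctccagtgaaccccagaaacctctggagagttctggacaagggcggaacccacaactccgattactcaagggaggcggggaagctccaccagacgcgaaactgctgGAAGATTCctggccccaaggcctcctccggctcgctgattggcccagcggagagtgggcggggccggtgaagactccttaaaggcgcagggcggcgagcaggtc
Hspa1b: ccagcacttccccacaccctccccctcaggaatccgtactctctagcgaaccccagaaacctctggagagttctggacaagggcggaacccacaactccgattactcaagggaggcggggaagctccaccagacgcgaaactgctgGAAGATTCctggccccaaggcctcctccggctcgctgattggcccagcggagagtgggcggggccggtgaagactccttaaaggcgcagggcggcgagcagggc

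The elements of the other members are given with 5 bases on each side, 5′ to 3′ on the strand of the gene, with capitals for the units. Those of Hspd1, chr1:55088054-55088081 on the minus strand, and Hspe1, chr1:55088054-55088081 on the plus strand, lie in overlapping windows of neighbouring genes that are read in opposite directions. They are the same stretch read from both strands, with 4 alternating units, and these are the only members with at least 3. Hsph1 had 1 tail-to-tail pair, at chr5:149636357-149636374 on the minus strand. Hspb1 had 2 head-to-head pairs, at chr5:135887797-135887814 and chr5:135887817-135887834 on the plus strand.
Hspd1: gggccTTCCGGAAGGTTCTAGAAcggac
Hspe1: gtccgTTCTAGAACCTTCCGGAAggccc
Hsph1: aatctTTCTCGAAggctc
Hspb1 first: caagaGAAGTTTCcagat
Hspb1 second: gggcaGAACCTTCctggc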

How the data were processed

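RNA labelled as subcutaneous SVCs was measured on 40 Agilent 1-colour arrays. The deposited array files hold, per the file headers, spot intensities from Feature Extraction 10.5.1.1 with a grid of build mm9; the labels give version 9.1. The unit is the processed intensity of that software, which the authors deposited for 45220 spots, 43803 of them not controls, from 40628 probes. A deposited table gave gene symbols, probe sequences and 40 columns that its values show to be log2 fold changes; those columns were not used.

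Groups came from the labels. Of 40 arrays, 38 had consistent labels and 2, of week 18, had conflicting ones and were left out of every comparison. The labels give 1 array per diet and time point, although the series' design text speaks of 3 biological replicates. Week 0, which the study's methods count as day 14, was kept as a time point of its own. The 32 slides and 16 scan days came from the files.

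Intensities were put on the log2 scale. Spots marked as outliers were dropped, spots of a probe averaged, each array's 75th percentile subtracted, and values not well above background raised to the array's lowest level that was. A gene was read from its probe with the highest mean over the 38 arrays. Comparisons used limma 3.58.1 in R 4.3.3, for probes that were well above background in 50% or more of either arm's arrays, and a Benjamini-Hochberg adjusted p under 0.05 over all probes tested. Time point was the block for the diet comparisons and for the difference between periods, and diet the block for the WS and period comparisons. The time point comes from the labels: of 11 pairs of LFC and HFC arrays, 8 deviated together with r above 0.1 (lowest -0.27, median 0.37, highest 0.68). Python 3.11.15, NumPy 2.4.6 and Matplotlib 3.10.9 were used for sequences and figures. The steps were tested on simulated data.

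Members and lists were fixed before these values were computed but with earlier results of these data known. The text names all members, up to 4 called genes with the largest difference per list and comparison, or 1 where none was called, and the 5 genes most like Hspa1a and Hspd1 by Pearson r. Hsf4, which this rule also picks, is given without its differences, since it was well above background on 12 of 38 arrays. Single genes outside this rule were chosen after their values were seen. Alternatives were quantile normalization, normexp background correction with an offset of 50, no filter, dim intensities as processed, outlier spots kept, array quality weights, no block, slide or scan day as a random block, pairs of 1 slide or 1 scan day, arrays or time points left out, the study's own test and the mean of all probes of a gene. Those on scan days, and those that leave out 3 time points together, were chosen after seeing the data.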

Additional observations from a re-analysis of the deposited data

Results flagged for a closer look

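Hspb1 on the HF5 array of week 3 had a level of 0.11, far below the other 5 HF5 arrays, which lay between 3.56 and 5.18. It was the 1 of 32 groups of arrays tested in which an array stood so far from the rest, where chance alone gives about 1 in 20 groups. The array held 58.5% of probes well above background.

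An array of week 18 that the labels put in no group, the second of 2, gave 6.97 for Hspa1a and 6.11 for Hspa8, in data that no comparison here uses. For Hspa8 this lay above the highest LFC level, 6.09, and below the highest HFC level, 6.16. For Hspa1a it is listed because the highest LFC level was 6.95, but the spot was saturated on this array, so 6.97 is not exact and gives no rank. Hspa1a's other probe of high level gave 6.81 there, below its highest LFC level of 6.89.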

How the results depend on the processing

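The comparisons were run under 142 alternative settings. In all but 1 of them 0 of the 8 genes passed the threshold by limma, as in the reported comparisons. That 1 was the WS comparison with array quality weights, in which 5 genes passed: Hspa1a, Hspa8, Hspb1, Hspd1 and Hspe1. Under that setting 16042 of all 30510 probes passed as well, so the count is not particular to these genes. The cause was not tested. Leaving out each time point, or each WS array, in turn gave 0 to 0 genes called in every comparison. Of 1136 differences of single genes, 1012 kept their direction and 124 took the other one, none of which was called on either side. The time point or diet block changed no other call than the count of probes for HF75 and that of Dpt in it. Slide as a random block could not be run for HF20 and HF75, which share no slide with HFC. Its estimated correlation was -0.52 for HFC against LFC, -0.34 for HF5, 0.27 for the WS arrays, 0.35 for the periods and -0.64 for the difference between their HFC effects. Of 40 median levels under alternatives, 37 moved by less than 1 SD. The dim LFC array of week 3, with a median spot at 1.53 times its background and a quality weight of 0.0476, limits what its levels can show.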

Other observations

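The 2 week 18 arrays without a group differed in depth. The first had 21710 spots marked as outliers and a 75th percentile of 3490, and gave 3.91 for Hspa1a, 3.54 for Hspa8, 2.54 for Dnajb1, 2.73 for Hsp90aa1, 2.50 for Hspb1 and 0.98 for Hspd1. The second had 52 such spots and a 75th percentile of 507, and gave 5.15 for Dnajb1, 5.76 for Hsp90aa1, 4.70 for Hspb1, 3.74 for Hspd1 and 2.17 for Hspe1. The mean of the immediate-early genes was 2.60 on the first and 5.46 on the second, and that of the adipocyte markers 0.87 and 3.06.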
